A study of Mus musculus with 2 samples.

Results

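The genes described here are the mouse counterparts of 10 human genes in which an inherited loss or gain of function predisposes to pheochromocytoma and paraganglioma, tumors of the adrenal medulla and of related ganglia. They are Sdha, Sdhb, Sdhc, Sdhd, Sdhaf2, Vhl, Nf1, Ret, Max and Tmem127, taken by symbol from the deposited gene and transcript tables, by a rule that uses no measured value. They make up 10 of 43346 Ensembl genes and 34 of 103639 Ensembl transcripts in those tables.

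Polyadenylated RNA of the adrenal gland of a female adult C57BL/6J mouse aged 10 weeks was sequenced, and no treatment or genetic change is named in the labels. The 2 libraries, here replicate 1 and replicate 2, are technical replicates of 1 biological sample, and the second was made later, in May 2015. They form 1 group, so library and date cannot be told apart, and an SD over n = 2 libraries gives technical spread only.

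Succinate dehydrogenase, complex II of the respiratory chain, oxidizes succinate to fumarate in the citric acid cycle and passes the electrons to ubiquinone. When it fails, succinate builds up and inhibits the prolyl hydroxylases that mark hypoxia-inducible factors for destruction by the VHL ubiquitin ligase, so the SDH genes and VHL are grouped as a pseudohypoxia class. RET, NF1, MAX and TMEM127 act on growth signaling through receptor tyrosine kinase, RAS, MYC and mTORC1, and form the kinase class. The gland studied is normal tissue in which the medulla is a small part of a mostly cortical organ.

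The libraries differed in make-up, which bears on every ratio between them. They held 28267651 and 17376660 expected counts, of which 53.1% in replicate 1 and 15.3% in replicate 2 fell on mitochondrial genes or their nuclear copies, leaving 13260900 and 14716667 nuclear counts. Among the 14358 genes whose counts summed to 20 or more, the log2 ratio of replicate 2 to replicate 1 had a median of 0.10 and an SD of 2.39 under TMM scaling, a normalization that assumes most genes are equal. The median was 1.24 with scaling by total count, 0.39 by total nuclear count and 0.05 with DESeq2 size factors. It climbed with GC content, from -1.59 in 2024 genes at over 40% to 44% GC to 3.68 in 1987 genes at over 56% to 60% GC. After removal of this GC trend the SD was 1.29.

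Transcripts of 9 of the 10 genes reached a TPM of 1 in each library, TPM being a share of the transcript pool corrected for transcript length, and Ret alone was below it. Sdha led in both libraries, and the 4 subunits of succinate dehydrogenase took the top of the order in replicate 2 only. In replicate 2 the levels ran Sdha, Sdhb, Sdhd, Sdhc, Tmem127, Max, Sdhaf2, Vhl, Nf1 and Ret, from 372 to 0.540 TPM. In replicate 1 they ran Sdha, Sdhd, Sdhb, Max, Tmem127, Sdhaf2, Nf1, Sdhc, Vhl and Ret, from 92.6 to 0.180 TPM. The order was firm only in part. The deposited intervals of neighbours overlapped for 4 of 9 pairs in replicate 1, which covers the run from Tmem127 to Vhl, and for 1 of 9 in replicate 2, Sdhaf2 and Vhl. Sdhb and Sdhc stood lower in the order of replicate 1 than in that of replicate 2. All 10 genes had the higher TPM in replicate 2, by 1.7- to 19.9-fold. With TPM rescaled over nuclear genes, 5 of 10 were higher there.

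**Figure D1:**
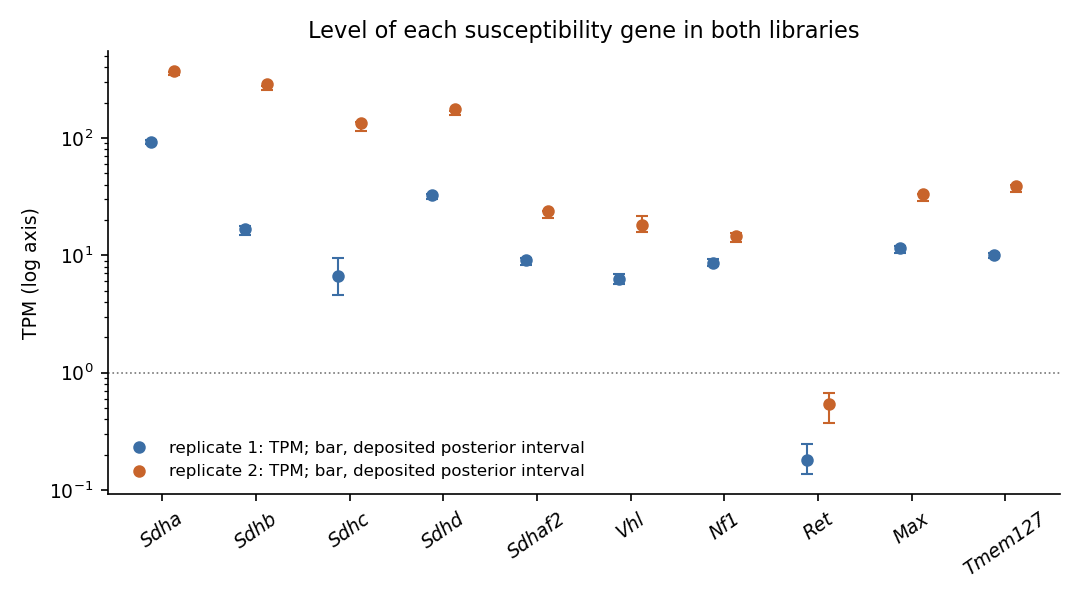
Level of each of the 10 genes in TPM on a log axis, in replicate 1 (blue) and replicate 2 (orange). Points are deposited TPM, bars span the deposited posterior interval, and the dotted line marks a TPM of 1. Sdha was the most abundant gene in both libraries and Ret, at 0.180 and 0.540 TPM, lay below the line in both. For 5 of the 20 points TPM lies outside its own deposited interval.

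Each gene was then tested between the libraries with an exact binomial test on rounded counts, called at a Benjamini-Hochberg adjusted p under 0.05 over all tested genes and a fold of at least 2. The test compares these libraries, not conditions or animals. All 10 genes passed the count minimum. Sdhb and Sdhc were called higher in replicate 2, 2 of 10 against 36.4% of all tested genes. Nf1 was called lower, 1 of 10 against 27.8% of all. The other 7 were not called. With no fold required, 8 of the 10 had an adjusted p under 0.05, beside 12592 of all 14358 tested genes. The median log2 ratio of the 10 was -0.11, beside 0.10 over all genes tested. With the GC trend removed, Sdhc was called higher, against a background of 13.5%, and Ret and Tmem127 were called lower, against 12.4%. With the GC content of each gene's leading transcript used in place of the gene mean, an alternative chosen after seeing the data, Ret was the only one of the 10 still called, and it was lower. The GC value of its leading transcript, Ret-202, is from a reference sequence of 4497 bases, whereas the quantified form has 7341, so that call is uncertain. The call for Ret by gene GC content draws on the same reference sequence and is uncertain too.

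**Figure D2:**
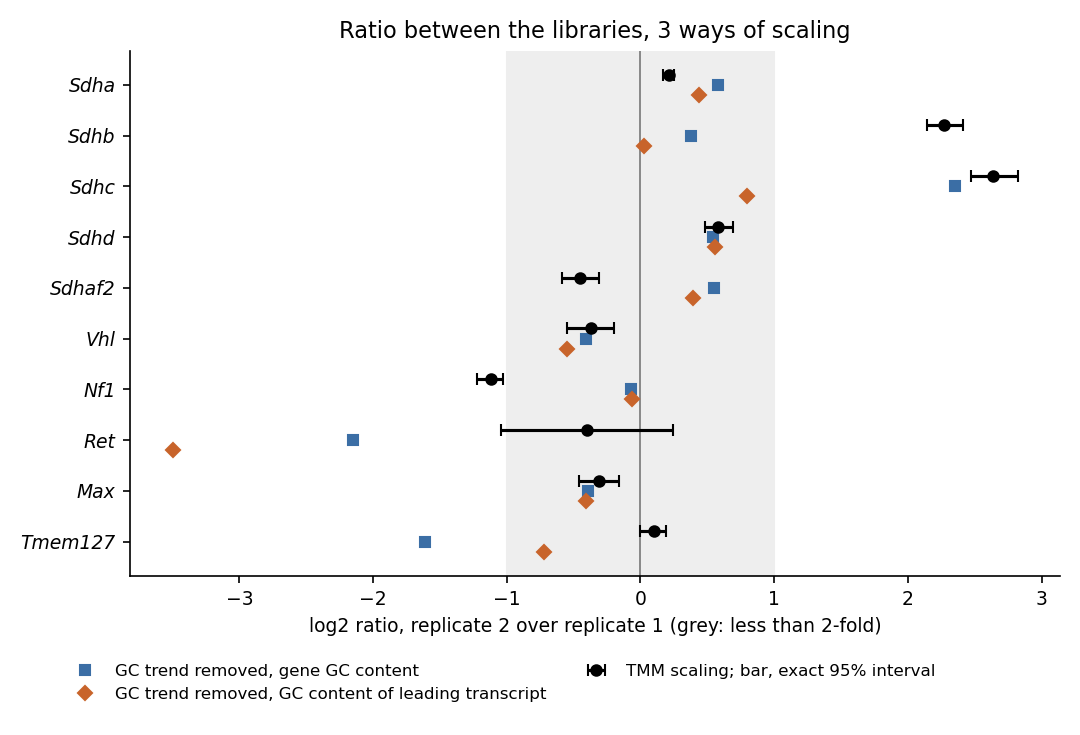
Log2 ratio of replicate 2 to replicate 1 for each gene. Black points are TMM-scaled ratios with exact 95% intervals, blue squares have the GC trend removed by gene GC content, and orange diamonds by the GC content of the leading transcript, which is the one with the highest mean TPM. The grey band holds ratios under 2-fold. Sdhb moved from 2.27 to 0.38 and 0.03, whereas Ret moved from -0.40 to -2.15 and -3.50.

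Among the catalytic subunits, Sdha, the flavoprotein that binds succinate (chr13:74322254-74350280, minus strand), stood at 92.6 TPM in replicate 1 and 372 TPM in replicate 2, from 7949 and 12407 counts. Its mean was 232 ± 198 TPM (SD, n = 2). The TPM values lie far apart, yet within nuclear transcripts the gene kept nearly the same place, rank 298 in replicate 1 and 238 in replicate 2. The scaled counts were 1.16 times as high in replicate 2 (exact 95% interval 1.12 to 1.19), under the fold required.

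Sdhb, the iron-sulfur subunit that carries electrons onward (chr4:140961203-140979193, plus strand), stood at 16.7 TPM in replicate 1 and 285 TPM in replicate 2. The counts were 520 and 3388, so replicate 1 was low. On scaled counts Sdhb was 4.82-fold higher in replicate 2 (4.40 to 5.30), with a log2 ratio of 2.27. Its GC content is 54.1%, where the trend over all genes gives a log2 ratio of 1.89. After removal of the trend 0.38 remained, and the call was lost. It was -0.05 with GC and length trends both removed.

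Of the membrane anchors, which hold the complex in the inner membrane and bind ubiquinone, Sdhc (chr1:171127165-171150603, minus strand) stood at 6.67 TPM in replicate 1 and 133 TPM in replicate 2. Its counts were 304 and 2568, and replicate 1 was again the low library. The scaled counts were 6.25-fold higher in replicate 2 (5.55 to 7.07), the largest ratio among the 10 genes. Sdhc has a gene GC content of 50.1%, for which the trend gives 0.29, so a log2 ratio of 2.35 remained and the gene was still called. Its leading transcript has 54.1% GC, however, and with that value 0.80 remained and the call was lost. The call for Sdhc therefore depended on whether the gene's mean GC content or that of its leading transcript was used. That transcript, Sdhc-201, leads by TPM but was given only 52.9 and 518 counts. Sdhc-202, with 48.7% GC, was given 245 and 2033, so the 54.1% is that of the smaller part of the gene's counts.

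Sdhd, the other anchor (chr9:50596357-50603812, minus strand), stood at 32.5 TPM in replicate 1 and 176 TPM in replicate 2, from 1188 and 2404 counts. The scaled ratio was 1.50 (1.40 to 1.61), under the fold required. On the log2 scale it was 0.58, below Sdhb and Sdhc. It was 0.54 without the GC trend, above Sdhb at 0.38.

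The assembled complex holds 1 copy of each of these subunits. Their mRNA levels were far from equal in replicate 1, where Sdha was 13.9 times the level of Sdhc, and closer in replicate 2, where it was 2.80 times that of Sdhc. Sdha made up 62.3% of the summed TPM of the subunits in replicate 1 and 38.5% in replicate 2. Sdhb made up 11.3% and 29.6%, and Sdhc 4.49% and 13.7%. Sdhd held the most even share, 21.9% and 18.2%. Sdha was the highest and Sdhc the lowest subunit in both libraries, while the second place changed from Sdhd to Sdhb. The libraries thus gave different subunit ratios, and neither set is given here as that of the tissue.

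Sdhaf2, the assembly factor that attaches the flavin to SDHA (chr19:10500534-10526142, minus strand), stood at 9.07 and 23.9 TPM. The counts of 876 and 866 were nearly equal. On scaled counts the ratio was 0.732 (0.666 to 0.805), under the fold required. Its log2 ratio was -0.45 under TMM, 0.69 under total count and 0.55 without the GC trend, so that even its sign depended on the scaling. Sdhaf2 overlaps Cpsf7 on the opposite strand, a gene with 789 and 825 counts, and use of strand in the counting is not given in the sources used here, so reads of the overlap cannot be told apart.

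The other SDH assembly factors tested split, with 1 of 3 called higher, 1 lower and 1 not called, beside 36.4% higher and 27.8% lower over all genes. Sdhaf1, which helps insert the iron-sulfur clusters of SDHB, stood at 0.520 and 7.87 TPM and was called higher. Sdhaf3, which acts in the same step, stood at 2.59 and 2.74 TPM and was called lower. Sdhaf4, which helps join SDHA to SDHB, stood at 7.68 and 42.3 TPM and was not called. The split was gone without the GC trend: Sdhaf1 (log2 1.54) and Sdhaf4 (1.57) were called higher, and Sdhaf3 came to 0.01.

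In the citric acid cycle around the complex, 6 of 16 genes (37.5%, beside 36.4% of all genes) were called higher in replicate 2. A further 3 were lower (18.8%, beside 27.8%) and 7 neither, with a median log2 ratio of 0.61. Without the GC trend 5 were higher and none was lower, with a median of 0.81, beside 13.5% and 12.4% of all genes. Dld, a subunit shared by the 2-oxoacid dehydrogenases, stood at 202 and 198 TPM and was called lower on scaled counts, at a log2 ratio of -1.87 that came to 0.04 without the trend. Mdh2, the mitochondrial malate dehydrogenase and itself a rarer susceptibility gene, went from 7.44 to 294 TPM, a 14.2-fold higher scaled count. Its log2 ratio was 3.83, above those of Sdhb and Sdhc. Without the GC trend, by gene GC content, it was 1.59, below that of Sdhc (2.35). Sdhc came to 0.80 with the GC content of its leading transcript, a value not given here for Mdh2.

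Vhl, the substrate-binding subunit of the ubiquitin ligase (chr6:113623959-113631633, plus strand), stood at 6.23 TPM in replicate 1 and 18.1 TPM in replicate 2. Its counts were 539 and 562, and its mean was 12.2 ± 8.39 TPM (SD, n = 2). The scaled ratio was 0.772 (0.685 to 0.871), under the fold required. The log2 ratio was -0.37 under TMM, -0.41 without the GC trend and 0.76 under total count.

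Its partners were at very different levels. Elob and Eloc, the elongins that bind VHL as a pair, stood at 5.55 and 141 TPM in replicate 1 but at 350 and 164 TPM in replicate 2. Elob was 17.3-fold higher on scaled counts (56.6% GC) and Eloc was at 0.327 times (41.1% GC). Neither was called once the GC trend was removed, at 0.94 and 0.14 on the log2 scale. Cul2, the cullin scaffold, stood at 25.1 and 28.6 TPM, and Rbx1, the RING subunit, at 10.2 and 46.3 TPM.

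Of the HIF alpha subunits that VHL targets, Hif1a stood at 23.0 and 24.0 TPM and Epas1, which encodes HIF-2 alpha, at 14.6 and 70.9 TPM. Hif1a was called lower on scaled counts (log2 -1.78, and -0.02 without the GC trend), and Epas1 was not called (0.43). Hif3a was lowest, at 0.530 and 1.39 TPM. Among the hydroxylases that mark HIF, Egln1 stood at 8.45 and 27.0 TPM, Egln2 at 1.06 and 49.0 TPM and Egln3 at 1.00 and 2.46 TPM. In the whole VHL-HIF list 3 of 12 genes (25.0%) were called higher, 3 lower and 6 neither, with a median of -0.31, beside 36.4% higher and 27.8% lower over all genes. None of these 6 calls held without the GC trend, where Rbx1 was called higher (log2 1.17) and Hif3a (-2.62), Egln1 (-3.04) and Egln3 (-1.28) lower. Of 7 tested HIF target genes 5 were called higher and 1 lower, with a median of 1.02 that was -0.09 without the GC trend.

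Nf1 encodes neurofibromin, the GTPase-activating protein that switches RAS off (chr11:79339693-79581612, plus strand). It was measured at 8.66 TPM in replicate 1 and 14.7 TPM in replicate 2. Counts were 2555 in replicate 1 and 1583 in replicate 2. On scaled counts it was at 0.459 times in replicate 2 (0.431 to 0.489, adjusted p = 5.87e-135 in the exact binomial test), a log2 ratio of -1.12. The direction followed the scaling: the ratio was 0.01 under total count, -0.07 without the GC trend and 0.21 with GC and length trends removed. Its GC content of 45.0% is the lowest of the 10 genes, and the trend gives -1.06 there. Genes inside an Nf1 intron lie on the opposite strand, of which Omg had 356 and 114 counts.

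In the RAS pathway, 4 of 14 genes (28.6%, beside 36.4% of all) were called higher, 7 lower (50.0%, beside 27.8%) and 3 neither. The median was -0.81, and it was -0.28 without the GC trend. Mapk3, the kinase ERK1, stood at 4.38 and 103 TPM and was called higher (log2 3.85). That call did not hold without the GC trend, where the log2 ratio was 0.63.

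Ret, the receptor tyrosine kinase for ligands of the GDNF family (chr6:118151745-118197718, minus strand), was the least abundant of the 10. It had 43 counts in replicate 1 and 44 in replicate 2, or 0.180 and 0.540 TPM. Its nuclear rank was 12770 in replicate 1 and 14540 in replicate 2. The scaled ratio was 0.758 with a wide interval (0.486 to 1.18, adjusted p = 0.253 in the exact binomial test), so no difference was detectable at this depth under TMM. At its GC content of 53.8% the trend gives a log2 ratio of 1.75, and relative to that Ret was lower, by a log2 ratio of -2.15. The reference sequences behind that GC content, of 5456 bases for Ret-201 and 4497 for Ret-202, are shorter than the quantified forms, 6064 and 7341. With this mismatch and 43 and 44 counts, the call made without the GC trend is uncertain.

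The co-receptors that present these ligands to RET were low as well. Gfra1 had 56 and 57 counts. Gfra2 stood at 1.20 and 6.27 TPM, Gfra3 at 0.0200 and 2.27 TPM, and Gfra4 at 0.170 and 4.28 TPM. Gfra3, with 1 count in replicate 1 and 51 in replicate 2, and Gfra4, with 6 and 56, were called higher. After removal of the GC trend Gfra3 was not called (log2 1.26) and Gfra4 was called lower (-3.68). The adaptors downstream were more abundant and broadly used: Grb2 stood at 27.2 and 66.1 TPM, Shc1 at 6.88 and 43.8 TPM, and Frs2 at 8.65 and 13.3 TPM. In the RET list 2 of 10 tested genes were higher, 2 lower and 6 neither, beside 36.4% higher and 27.8% lower over all genes. The median was 0.24. With the trend removed none was higher and 4 were lower, beside 13.5% and 12.4% of all genes. The median was then -0.63.

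Max, the obligate partner of MYC and of the MXD repressors (chr12:76937269-76962201, minus strand), stood at 11.6 TPM in replicate 1 and 33.4 TPM in replicate 2. The counts were 687 and 749. The scaled ratio was 0.807 (0.727 to 0.897), under the fold required. The log2 ratio was -0.31 under TMM, -0.39 without the GC trend and 0.83 under total count.

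In the network around MAX, 5 of 10 tested genes (50.0%, beside 36.4% of all) were called higher, 1 lower (10.0%, beside 27.8%) and 4 neither. The median was 1.19, and it was -0.46 without the GC trend. Mxd4, a repressor partner, stood at 2.18 and 67.8 TPM and was called higher with and without the trend (log2 3.10 and 1.54). Myc stood at 2.55 and 28.1 TPM and was called higher only with it (1.70 and -0.66). Mga, a large MAX-binding repressor, stood at 9.18 and 14.1 TPM and was called lower on scaled counts (-1.80, and -0.29 without the trend).

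Tmem127, a transmembrane protein of endosomes and lysosomes that restrains mTORC1 (chr2:127247908-127261107, plus strand), stood at 10.0 TPM in replicate 1 and 38.6 TPM in replicate 2. Its counts were 1541 and 2225. The scaled ratio was 1.07, and equal levels lay at the edge of its interval of counting error (1.00 to 1.14, adjusted p = 0.0512 in the exact binomial test). Because its gene GC content is 53.7%, where the trend gives 1.71, removal of the trend turned the log2 ratio from 0.10 to -1.61, called lower. With the 51.8% of its leading transcript the ratio was -0.72, not called. In mTORC1 and its regulators 9 of 17 genes (52.9%, beside 36.4% of all) were called higher, 5 lower (29.4%, beside 27.8%) and 3 neither, with a median of 1.04. Once the GC trend was removed 5 were higher and 1 lower, beside 13.5% and 12.4% of all genes. The median was then 0.28, and none of the 5 lower calls was kept. Rheb, the GTPase that activates mTORC1, stood at 88.5 and 82.4 TPM, and Lamtor4, a subunit of its lysosomal anchor, at 0.270 and 83.9 TPM.

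**Figure D3:**
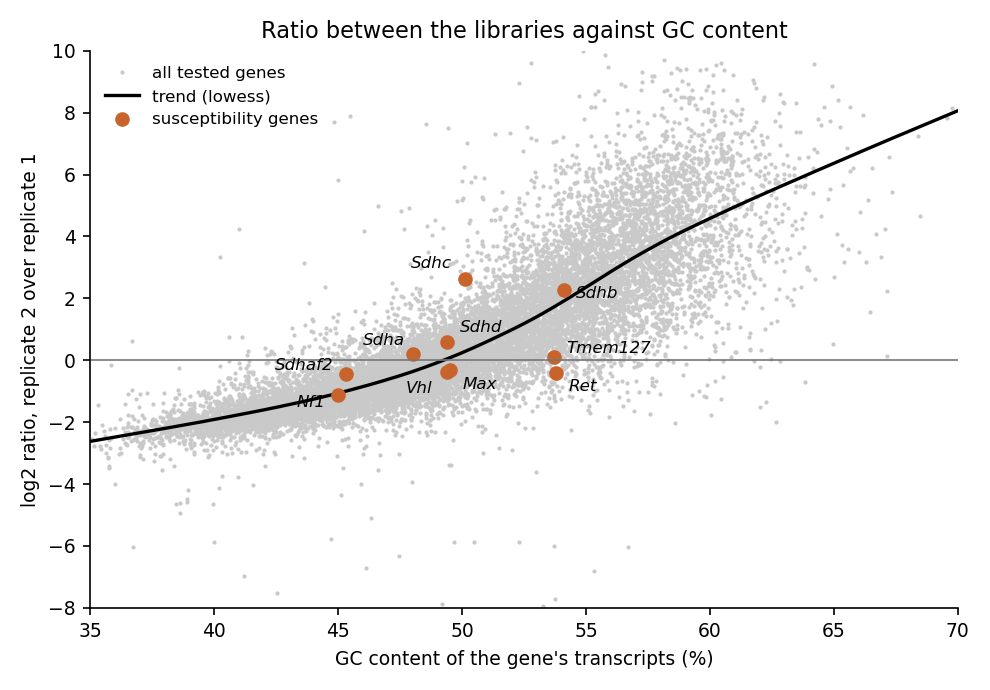
Log2 ratio between the libraries (replicate 2 over 1, prior count 0.5) against GC content (%) for tested genes (grey), with the lowess trend (line) and the 10 susceptibility genes (orange). In all, 40 of the genes with a GC value lie outside the axes. Nf1 and Sdhb sit near the line at opposite ends of the 10 genes' GC range, Sdhc lies above it, and Ret and Tmem127 lie below it.

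The transcript tables show which forms of these genes were present, and several carry alternative coding exons. Of the 34 transcripts, 28 had counts in at least 1 library and 18 reached a summed count of 20. Of these 18, 5 were called higher in replicate 2, against 44.4% of all 28322 tested transcripts, and 3 lower, against 27.1%. Transcript counts are the deposited program's division of reads that the forms share, so shares are given in each library as a description. The sequences below are from GENCODE M21 transcripts on GRCm38, read 5′ to 3′ on the coding strand.

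Max has 2 annotated coding forms in the tables, which differ in a coding exon of 27 bases near the start of the protein. The exon (chr12:76961263-76961289, minus strand, exon 2 of Max-202) adds 9 codons just ahead of the basic region that contacts DNA. It is in capitals, with 30 bases of the neighbouring exons in lower case.
Max-202: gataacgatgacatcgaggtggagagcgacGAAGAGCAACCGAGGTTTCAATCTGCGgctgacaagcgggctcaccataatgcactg
The form without the exon, Max-201, was given 687 counts in replicate 1 and 526 in replicate 2. Max-202 was given 0 and 223, or 0 and 9.85 TPM. Its share of Max was thus 0% in replicate 1 and 29.5% in replicate 2. No fold is given, since the 0 comes from the division of reads that the forms share. The deposited posterior means, which do not settle at 0, gave shares of 8.79% and 31.3%. In deposited TPM, the posterior interval of Max-202 ended at 2.63 in replicate 1 and began at 6.17 in replicate 2, without overlap. That scale differs between the libraries. Max as a whole stood at 11.6 and 33.4 TPM, but at 66.1 and 54.2 with TPM rescaled over nuclear genes. The gap therefore does not by itself show a different share of Max. Both forms have 49.6% GC, and the call for Max-202 held without the GC trend. Max-201 was not called under TMM (log2 -0.51) but was called lower without the trend (-1.03).

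Ret has 2 coding forms that part after a shared exon and end the receptor differently. The long form, Ret-201, reads into a further exon and ends with 51 codons of its own (chr6:118153853-118154010, minus strand). The short form, Ret-202, reads past the splice site and ends with 9 codons of its own (chr6:118155256-118155287, minus strand). These tails carry different docking sites in the receptor, and the forms are known by the lengths of their tails. The last 30 shared bases are in lower case and the form's own coding end, stop codon included, is in capitals.
Ret-201: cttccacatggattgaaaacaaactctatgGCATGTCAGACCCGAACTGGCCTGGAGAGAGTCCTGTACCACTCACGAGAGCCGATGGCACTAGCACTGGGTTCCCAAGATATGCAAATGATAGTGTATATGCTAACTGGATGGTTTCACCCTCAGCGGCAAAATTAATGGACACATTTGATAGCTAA
Ret-202: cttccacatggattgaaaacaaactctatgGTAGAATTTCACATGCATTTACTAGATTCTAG
The short form was given 43.0 counts in replicate 1 and 26.2 in replicate 2. The long form was given 0 and 17.8, under the count needed for a test. The short form's share was 100% and 54.7%, and its posterior share 86.4% and 55.5%. At counts this low the shares rest on few reads, and the posterior TPM intervals of the long form, up to 0.0672 in replicate 1 and from 0.0115 in replicate 2, overlapped.

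Sdhc has 3 forms in the tables. Sdhc-202 includes a coding exon of 102 bases (chr1:171143558-171143659, minus strand, exon 3) that Sdhc-201 skips, a loss of 34 codons that keeps the frame. The exon is in capitals, with 30 bases on each side in lower case.
Sdhc-202: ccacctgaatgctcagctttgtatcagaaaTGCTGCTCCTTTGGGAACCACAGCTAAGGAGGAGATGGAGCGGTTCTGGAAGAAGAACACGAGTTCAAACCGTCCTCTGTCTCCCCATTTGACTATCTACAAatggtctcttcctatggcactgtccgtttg
The full coding form Sdhc-202 stood at 2.47 TPM in replicate 1 and 54.6 TPM in replicate 2. The skipping form Sdhc-201 stood at 2.54 and 66.5 TPM. The skipping form took 38.1% and 50.0% of the gene and the including form 37.1% and 41.1%, and both were called higher in replicate 2. The forms also differ in length, 815 bases for Sdhc-201 and 3171 for Sdhc-202, through a longer last exon, so the split rests on both features and not on reads across the exon alone. Sdhc-201 has 54.1% GC and Sdhc-202 48.7%. Without the GC trend Sdhc-202 was still called higher (log2 2.71) and Sdhc-201 was not (0.34), the same split of outcomes as for the gene under its 2 GC values. A short form of 298 bases, Sdhc-203, took 24.8% and 8.80% on 6.33 and 16.7 counts.

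Nf1 has a coding exon of 63 bases (chr11:79463233-79463295, plus strand, exon 31 of Nf1-201) in the domain that acts on RAS. Nf1-202 lacks these 21 codons. The exon is shown in capitals between 30 bases of each neighbour.
Nf1-201: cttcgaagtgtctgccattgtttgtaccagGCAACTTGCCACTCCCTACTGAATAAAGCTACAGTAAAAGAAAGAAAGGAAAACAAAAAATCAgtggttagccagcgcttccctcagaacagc
The including form Nf1-201 stood at 5.60 and 8.98 TPM, 64.7% and 61.1% of the gene. The form without the exon, Nf1-202, had 3.45 and 30.2 counts, 0.130% and 1.82%. It was called higher in replicate 2 (7.99-fold, interval 2.85 to 46.9), from few counts. The included form was thus the main one in both libraries. The forms also differ at their last exon, by 11917 against 9217 bases in all. Nf1-206, annotated as coding with 18 exons near the end of the gene, took 28.1% and 29.0%.

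Sdhb and Sdha each had 1 full-length coding form that held most of the gene in both libraries. Sdhb-201, of 8 exons, took 77.8% in replicate 1 and 98.5% in replicate 2, and Sdhb-202, a form of 5 exons with no coding sequence annotated, took 22.2% and 1.36%. In TPM the noncoding form was level, 3.71 and 3.89, while the coding form stood at 13.0 and 281. On scaled counts Sdhb-201 was called higher (7.43-fold, 6.71 to 8.26) and Sdhb-202 lower (0.359 times, 0.243 to 0.514). The difference in gene total was therefore carried by the coding form, whose log2 ratio was 2.89 under TMM and -0.47 without the GC trend. Sdhb-202 was still called lower without the trend, at a log2 ratio of -4.15. The 2 forms have close GC contents, 54.9% and 53.9%.

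Sdha-201, of 15 exons, took 94.0% and 98.3%. Sdha-206, annotated as a retained intron, took 5.38% and 1.08%, at 4.98 and 4.03 TPM, and was called lower (0.284 times, 0.185 to 0.416), a call lost without the GC trend (log2 -0.29). Nf1-205, also a retained intron, was the other transcript called lower (0.387 times, 0.202 to 0.684), with -0.15 left without the trend. Sdhd-201, Sdhaf2-201 and Tmem127-201 took 100% of their genes in both libraries, and Vhl-201 took 100% and 94.9%.

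**Figure D4:**
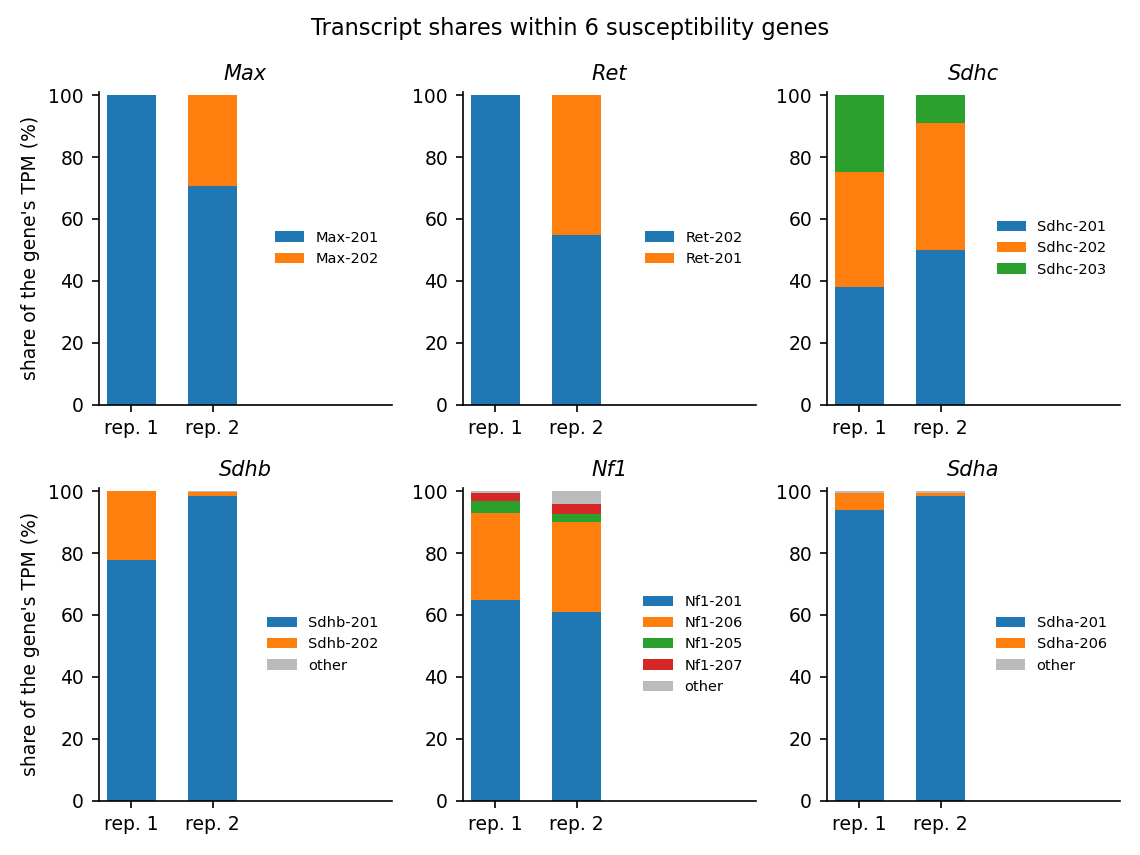
Share of each gene's TPM (%) given to its transcripts in replicate 1 and replicate 2, as stacked bars for 6 of the genes; forms under 2.5% in both libraries are joined as other. Max-202 and Ret-201 appear in replicate 2 at 29.5% and 45.3% and are at 0% in replicate 1, and Sdhb-202 takes 22.2% in replicate 1 and 1.36% in replicate 2.

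The label of the tissue was checked against markers of its cells. All 10 markers of the cortex and 10 of 12 markers of chromaffin cells, the cells from which these tumors arise, reached a TPM of 1 in each library. The exceptions were Phox2a, at 0.230 and 10.1 TPM, and Pnmt, which makes epinephrine, with 0 counts against 4291 in replicate 2. Pnmt was at least 1059-fold higher if a floor of 3 counts is taken for replicate 1, before any removal of the GC trend. It has 60.5% GC, and its log2 ratio with the prior count was 12.63, and 7.85 without the GC trend, still called. Summed chromaffin markers stood at 771 TPM in replicate 1 and 5600 TPM in replicate 2, and summed cortex markers at 7801 and 42097 TPM. Of 12 chromaffin markers 6 were called higher and none lower, with a median of 0.93, but without the GC trend 3 were higher and 5 lower, with a median of -0.07. Of 10 cortex markers 6 were higher and 1 lower, and without the trend 5 were higher and none lower. Over all genes 36.4% were higher and 27.8% lower, and 13.5% and 12.4% without the trend. In bulk tissue fewer cells of a type and less RNA per cell cannot be told apart, and the part of cell make-up in the ratios of the 10 genes was not tested. Chga, the granule protein chromogranin A, was called higher on scaled counts (log2 4.18, and 0.52 without the GC trend). Chgb, a related granule protein, stood at 303 and 1854 TPM and was not called (0.77), but was called lower without the trend (-1.07). Of 8 glial markers, for the sustentacular cells of the medulla, 7 were tested, 3 were higher and 1 lower (1 and 2 without the GC trend), and their sum was 3.90 and 19.4 TPM. Sox10, which defines glia, had 0 counts in replicate 1 and 35 in replicate 2. It has 62.7% GC and was not called without the GC trend (log2 0.14).

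Beyond the 10 genes, 20 others reported in these tumors, a list that includes genes altered only in the tumor, all reached a TPM of 1 in each library. Of these, 8 were called higher, 6 lower and 6 neither, beside 36.4% higher and 27.8% lower over all genes. The median was 0.53. Without the GC trend 3 were higher and 2 lower, beside 13.5% and 12.4% of all genes. Idh1, the cytosolic isocitrate dehydrogenase, had the highest mean TPM, from 269 and 436, and Dnmt3a, a DNA methyltransferase, the lowest mean, from 1.62 and 9.61. Egln2 was the most different upward (38.7-fold, 61.0% GC), and Cul3, a cullin of another ubiquitin ligase, downward (0.207 times, 39.0% GC). Both came under 2-fold without the GC trend, at log2 ratios of 0.32 and -0.21.

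**Figure D5:**
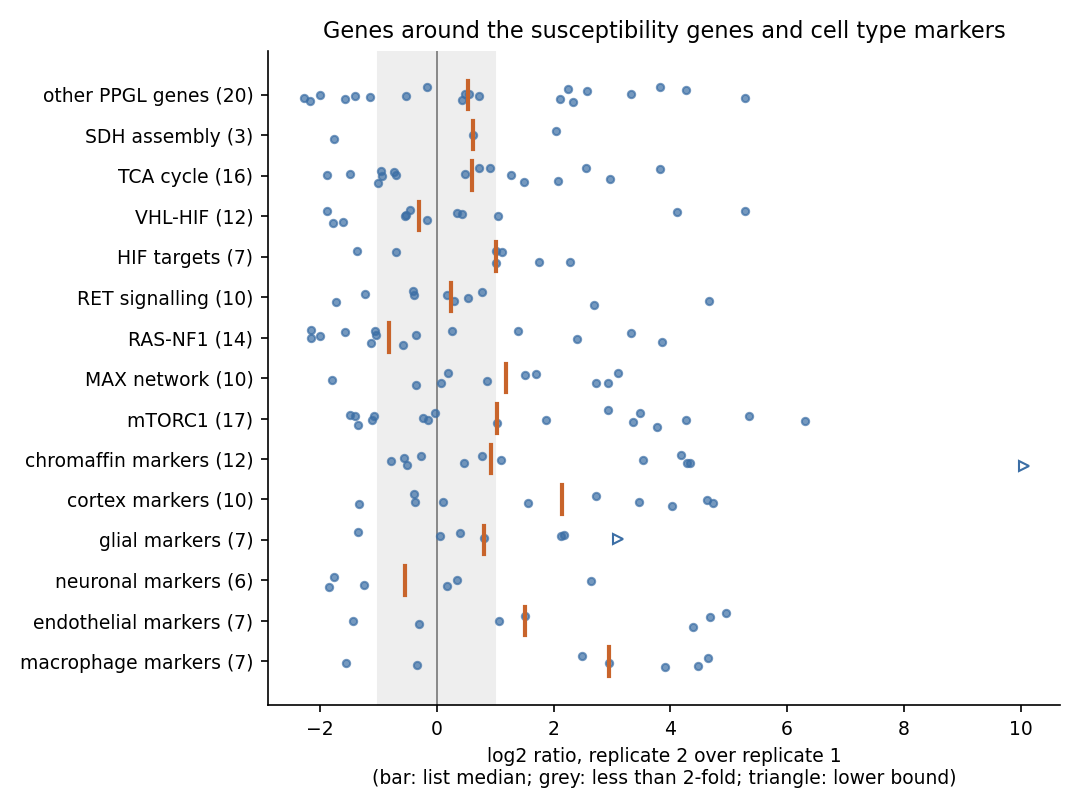
Log2 ratio of replicate 2 to replicate 1 for tested genes of 15 lists, with the number tested in parentheses. Each point is a gene, orange bars are list medians, and the grey band holds ratios under 2-fold. Open triangles are lower bounds, at a floor of 3 counts, for Pnmt and Sox10, which had 0 counts in replicate 1. Every list but that of SDH assembly holds several genes beyond the band, and medians run from -0.81 for the RAS pathway to 2.95 for macrophage markers.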

How the data were processed

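Polyadenylated RNA of 1 adrenal gland sample was sequenced in 2 technical replicate libraries. The authors deposited a gene and a transcript table per library with expected counts, which are estimated and need not be whole, TPM and FPKM, named so per the file headers. FPKM served only as an alternative. Posterior mean TPM and its interval bounds, treated as a score, and each transcript's share of its gene in percent, are also in the deposited tables. The submitters' processing notes name mm10 and GENCODE M4. Which aligner and counter were run is not given in the sources used here, nor is the level of the posterior interval. The 26345 rows of spike-ins and other entries had 0 counts and were left out.

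GENCODE M21 (GRCm38, also called mm10) supplied gene names, coordinates, sequences and GC content, and all 34 member transcripts were found there. Transcript lengths are those of the deposited tables, and GC content was missing for 84 tested genes. Matches to mitochondrial genes were found with blastn 2.17.0 (at least 90% identity over at least 50% of a transcript). The same search found 0 near-identical copies of the 10 genes.

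Counts were rounded, and genes or transcripts whose counts summed to 20 or more were scaled by TMM (edgeR 4.0.16, R 4.3.3). Since 2 technical libraries leave no residual degrees of freedom, each was tested with an exact two-sided binomial test (scipy 1.17.1), Benjamini-Hochberg adjusted over all tested. P-values measure counting error between these libraries alone. Log2 ratios carry a prior count of 0.5. Exact 95% intervals and the floor of 3 counts cover counting error only. The GC trend was a lowess fit (statsmodels 0.14.6, fraction 0.3). DESeq2 1.42.0 supplied size factors as an alternative, with other scalings, filters, folds and a preset coefficient of variation. The procedure was tested on simulated data.

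The rule for the members names genes and reads no value, but the members and the 15 lists around them were chosen with earlier results of these data known. Of 171 list entries, 4 symbols are older names not found in the tables. Named genes were the 10 members, their transcripts at a share of at least 10% or a summed count of at least 20, and in each list those with the highest and lowest mean TPM, the largest called ratio each way and direct partners of VHL, RET and MAX. Phox2a, Omg and Cpsf7 fall outside this rule and were chosen after their values were seen. Some genes that the rule names are not reported here.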

Additional observations from a re-analysis of the deposited data

How the results depend on the processing

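No paired analysis was possible because the libraries form 1 group, and leaving a library out of the test leaves no comparison. The count of members at a TPM of at least 1 was 9 under every alternative run. The ratio of highest to lowest SDH subunit, 6.23 as a geometric mean, was 2.80 to 13.9 with 1 library left out. Members called higher numbered 2, but 5 under total count, 4 with no fold minimum, 1 with the GC, the length or both trends removed and 0 with the GC trend of the leading transcript. Members called lower numbered 1, but 0 under total count, nuclear total count, length trend removed, a fold of at least 4 or a preset coefficient of variation of 0.4, 2 with the GC trend or GC and length trends removed, and 4 with no fold minimum. Of 150 tested list genes 66 were called higher and 35 lower, beside 36.4% and 27.8% of all tested genes. Without the GC trend 30 were higher and 24 lower, beside 13.5% and 12.4% of all. Higher calls numbered 27 without GC and length and 23 by leading transcript. Lower calls numbered 4 under total count, 58 with no fold minimum and 4 at a fold of at least 4. They numbered 2 with the preset variation and 20 by leading transcript. Shares over all genes under these other settings are not given here. Member transcripts called higher numbered 5, but 9 under total count, 3 without GC or GC and length trends and 8 with no fold minimum, and those lower 3, but 0 under total count, a fold of at least 4 or the preset variation, 9 without the length trend and 8 with no fold minimum. Signs of log2 ratios turned as follows. Under total count they were 0.01 for Nf1, 0.69 for Sdhaf2, 0.74 for Ret, 0.76 for Vhl, 0.83 for Max, 0.11 for Nf1-206, 0.69 for Sdhaf2-201, 0.75 for Vhl-201 and 0.32 for Max-201. Without the GC trend they were 0.55 for Sdhaf2, -1.61 for Tmem127, -0.47 for Sdhb-201, 0.31 for Nf1-206, 0.40 for Sdhaf2-201, -0.99 for Tmem127-201 and -1.69 for Sdhc-203. Without the length trend they were -0.65 for Sdhd, -0.11 for Sdha, 0.03 for Ret, -0.97 for Sdhd-201, -0.60 for Sdha-201 and -0.45 for Tmem127-201. Without both they were -0.05 for Sdhb, 0.21 for Nf1, 0.62 for Sdhaf2, -1.37 for Tmem127, -0.69 for Sdhb-201, 0.07 for Nf1-201, 0.43 for Nf1-206, 0.47 for Sdhaf2-201, -0.86 for Tmem127-201 and -1.06 for Sdhc-203. By leading transcript they were 0.39 for Sdhaf2 and -0.72 for Tmem127. The cause was not tested. Depth limited Ret most, at 43 and 44 counts.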

Other observations

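Markers of other cell types of the gland were read in the same way. Over all tested genes 36.4% were called higher and 27.8% lower, and 13.5% and 12.4% without the GC trend. Of 7 endothelial markers 5 were called higher in replicate 2 and 1 lower, with summed levels of 97.5 and 460 TPM. Without the GC trend 1 of them was higher and none lower. Plvap, the diaphragm protein of fenestrated vessels, stood at 0.960 and 89.0 TPM, and Emcn, endomucin, at 64.8 and 92.8 TPM. Plvap was called higher and Emcn lower on scaled counts, and neither call held without the GC trend, where the log2 ratios were -0.14 and 0.14. Of 7 macrophage markers 5 were called higher and 1 lower, and their sum was 12.4 and 191 TPM. Without the GC trend 2 were higher and none lower. C1qa and C1qb, chains of complement component C1q, stood at 0.990 and 54.7 TPM and at 0.570 and 52.6 TPM. Mrc1, the mannose receptor, stood at 7.51 and 7.19 TPM. C1qa (log2 -0.49) and Mrc1 (0.17) lost their calls without the trend, and C1qb (1.14) did not. Of 6 tested neuronal markers 1 was called higher and 3 lower (1 and 2 without the trend), and Snap25, a protein of vesicle release also used by chromaffin cells, led them at 18.5 and 24.1 TPM.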
